A study of Mus musculus with 24 samples.

Results

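The 70 genes described here were expressed in one of 2 mouse embryonic fibroblast (MEF) lines and close to undetected in the other. A gene was taken when its counts per 1000000 counts of the library (CPM) were at least 2 in all 12 libraries of one genotype and at most 0.2 in all 12 of the other. Of 55487 genes in the table, 50957 lie on autosomes, and 68 of these were expressed in WT MEFs only and 2 in *tfeb tfe3* double-knockout (DKO) MEFs only. The 68 made up 0.631% of the 10770 autosomal genes at 2 CPM or more in every WT library, and the 2 made up 0.019% of the 10536 such genes in DKO MEFs. A further 14 genes of the X or Y chromosome met the thresholds in the WT direction and 0 in the other, and these were left out. The members were thus selected on their CPM in the 2 genotypes, so their levels in both lines are given as a description without a test.

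The study asked which transcriptional effects of torin1, an ATP-competitive inhibitor of MTOR, and of MK-8722, an allosteric activator of AMPK, need the transcription factors TFEB and TFE3. WT MEFs and MEFs lacking both factors were treated with the vehicle DMSO, torin1 (Torin-1 in the labels) or MK-8722, and polyadenylated RNA was sequenced in 4 libraries of each of the 6 groups, 24 in all. Within each genotype each treatment had 1 library from each of 4 passages, which were 7, 8, 9 and 11 in WT and 8, 9, 10 and 11 in DKO MEFs. Both lines came from another laboratory, and the labels give no strain, embryo, clone, dose or duration of treatment. With 1 line per genotype, a difference made by the loss of TFEB and TFE3 and a difference between the lines that existed before cannot be told apart. Libraries of a group are cultures of 1 line at different passages, so p-values measure only the spread between such cultures.

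Fibroblasts from different parts of an embryo keep different sets of developmental transcription factors switched on, of which the HOX, T-box and HAND families are the best known. These positional programmes are held by chromatin over many divisions, so fibroblast lines taken from different places or embryos can differ in genes that are fully on in one and fully off in the other. TFEB and TFE3 are basic helix-loop-helix leucine zipper factors that bind E-box letters in promoters of lysosomal and metabolic genes, and MTORC1 keeps them out of the nucleus.

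Library totals ran from 24668921 to 33332562 estimated counts, so 1 CPM stood for 24.7 to 33.3 counts and a level of 0.2 CPM for only a handful. RNA integrity numbers ran from 7.9 to 9.9. *Tfeb* was at 15 to 25.2 CPM in the WT libraries and at 1.33 to 2.54 CPM in the DKO libraries, with no overlap. *Tfe3* was at 82.6 to 121 CPM in WT and 87.5 to 122 CPM in DKO libraries, so its total transcript level did not check the label. *Mitf*, a close relative, was at 5.10 to 11.2 and 17.7 to 42.7 CPM, and *Tfec* was at 0 throughout. Of 15 fibroblast markers, 12 were at 2 CPM or more in every WT library and 11 in every DKO library, while *Lum* and *Fap* stayed at or under 0.27 CPM in all libraries and *Dcn* at or under 1.24 CPM. The fibroblast marker that separated the lines was *Thy1*, itself a member. Markers of other cell types at 2 CPM or more in every WT library numbered 1 of 9 for epithelium, 1 of 7 for endothelium, 1 of 9 for blood, 1 of 8 for skeletal muscle, 4 of 5 for smooth muscle, 3 of 10 for neural cells, 2 of 6 for adipocytes, 2 of 8 for chondrocytes and osteoblasts and 0 of 6 for germ and pluripotent cells, and none of them was a member. For smooth muscle, 2 of the 5 were at that level in every DKO library. The summed smooth muscle markers were at 284 to 644 CPM in WT and 856 to 1606 CPM in DKO libraries, a sum carried by *Acta2* (medians of 207 CPM in WT and 830 CPM in DKO) and *Tagln* (162 and 400 CPM). *Cnn1* (6.31 and 0.0716 CPM) and *Des* (3.98 and 0.735 CPM) were lower in DKO libraries, and the part of such differences in the members was not tested.

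The WT-only genes had few or no counts in DKO MEFs. Their DKO counts summed over 12 libraries ranged from 0 to 24 with a median of 3, no DKO library held more than 6 counts of any of them, and the lowest count in a WT library was 53. For 15 members all 12 DKO libraries were at 0. A floor of 3 counts over the 12 DKO libraries equals 0.00903 CPM, and against it the mean WT levels of these 15 were at least 334-fold higher (*Pcbd1*) to at least 5359-fold higher (*Cyba*). Counting intervals and floors cover counting error only. In bulk RNA, a population of fewer expressing cells and a lower amount of RNA per cell cannot be told apart. Summed over the 68 genes, WT DMSO libraries held 632 ± 20.9 CPM, WT torin1 libraries 709 ± 25.0 CPM and WT MK-8722 libraries 614 ± 20.1 CPM (mean ± SD, n = 4). In the DKO groups the same sum was 1.22 ± 0.27, 1.48 ± 0.34 and 1.04 ± 0.13 CPM (SD, n = 4).

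**Figure D1:**
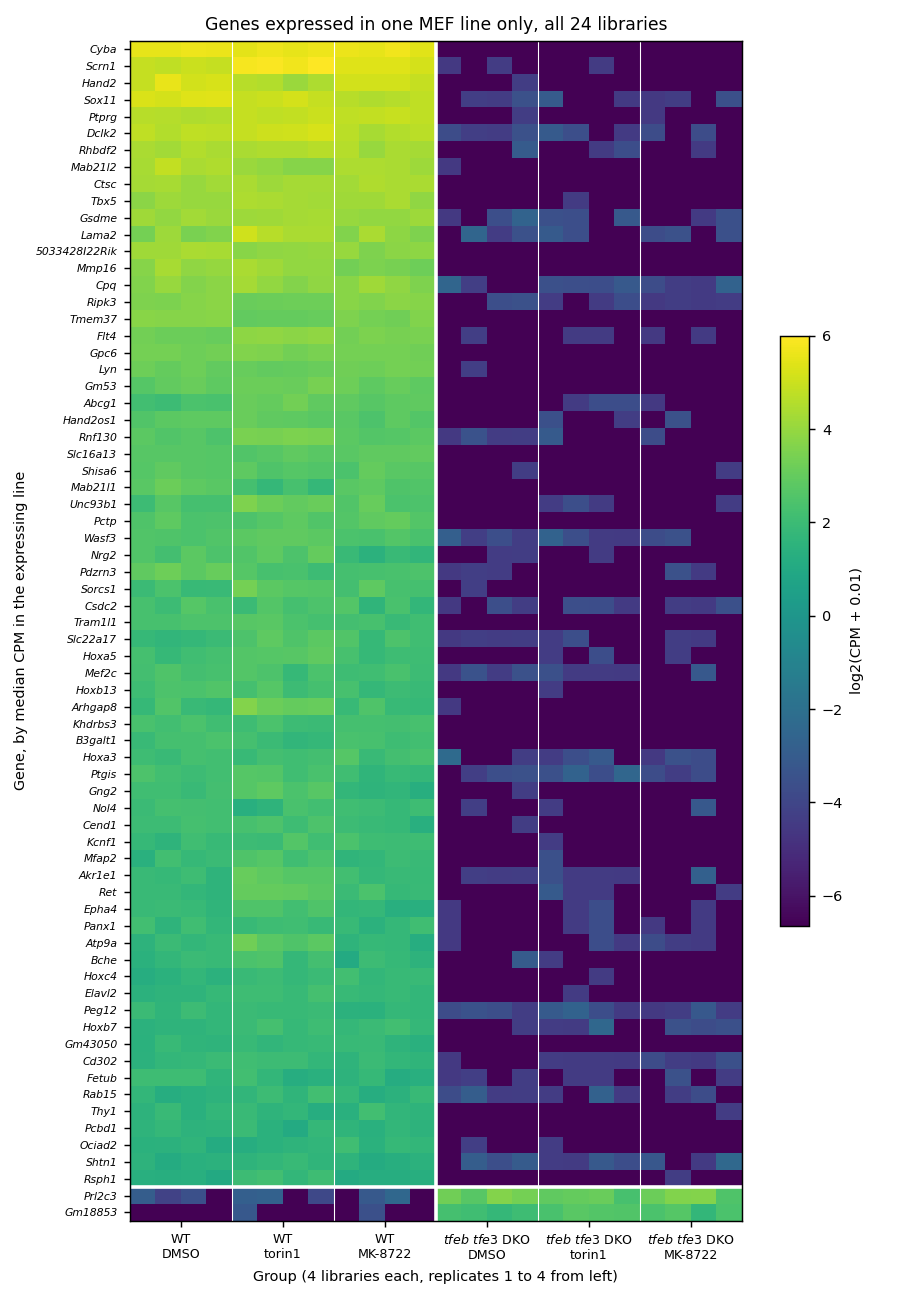
Level of each of the 70 genes (rows, ordered by median CPM in the expressing line) in all 24 libraries (columns, 4 per group), coloured by log2(CPM + 0.01). The 68 WT-only rows are bright in the 12 WT columns and dark in the 12 DKO columns, where single counts appear as scattered blue cells, and the 2 DKO-only rows at the bottom show the reverse.

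Most members had low counts even where they were on. Their median level over the 12 WT libraries ranged from 2.45 to 48.5 CPM, with a middle value of 5.05 CPM against 39.6 CPM for all autosomal genes at 2 CPM or more in WT MEFs, a scale that also depends on transcript length. Per length (TPM, the share of all transcripts), the WT medians ran from 1.10 to 127 TPM with a middle value of 4.20 TPM. For 34 members the median lay between 2 and 5 CPM, for 15 between 5 and 10, for 11 between 10 and 20, and for 8 above 20 CPM. The coefficient of variation over the 12 WT libraries had a median of 18.9% among the members and of 13.4% among all expressed genes. These sets were not matched for level, and low counts alone raise this coefficient. Of the 68, 64 were annotated as protein coding, 3 as long intergenic RNAs and 1 as a processed transcript.

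The count was lopsided at every level of the silent line below 2 CPM. Of autosomal genes at 2 CPM or more in every WT library, 15 had 0 in all DKO libraries, 34 peaked above 0 and up to 0.1 CPM there, 19 up to 0.2, 38 up to 0.5, 42 up to 1 and 89 up to 2 CPM. For genes expressed in DKO MEFs the same 6 steps held 0, 0, 2, 1, 12 and 50 genes by their highest WT library. The threshold of 0.2 CPM therefore cut through a continuous tail in the WT direction. Just inside it in the silent line were *Hoxa3* (highest DKO library 0.199 CPM), *Shtn1* (0.185) and *Hoxb7* (0.176), and just outside were *Tbx3* (0.203), *Nol3* (0.208) and *Clgn* (0.218). *Tbx3*, a T-box gene with a median of 40.2 CPM in WT MEFs, was thus left out by a margin smaller than 1 count. On the other threshold, *Rsph1* (lowest WT library 2.06 CPM), *Pcbd1* (2.08) and *Bche* (2.08) lay just inside and *Kif19a* (1.96), *Tspan12* (1.91) and *Il1rl2* (1.89) just outside. In the DKO direction *Ifi27l2b* (highest WT library 0.253 CPM), *Rassf6* (0.502) and *Evx2* (0.526) were the nearest genes outside on the silent side, and *Gm5784* (lowest DKO library 0.886 CPM) and *Mettl7b* (0.873) were among those on the expressed side.

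**Figure D2:**
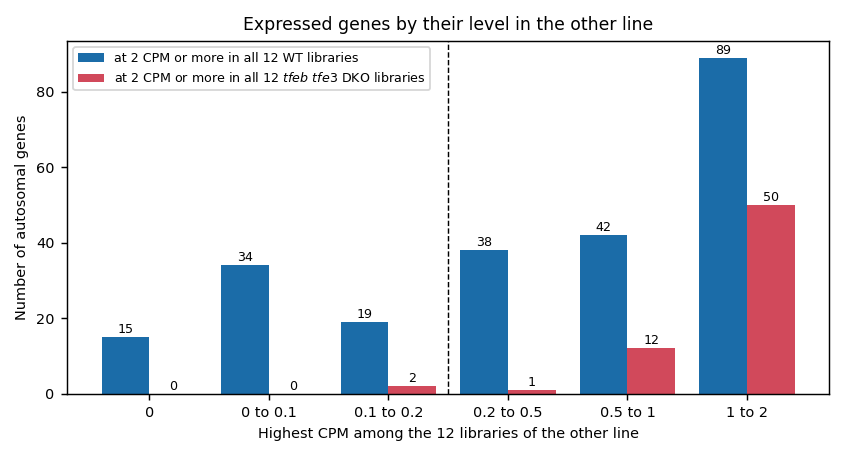
Number of autosomal genes at 2 CPM or more in all 12 libraries of one line (blue, WT; red, *tfeb tfe3* DKO), by the highest CPM that any library of the other line reached. The dashed line is the 0.2 CPM threshold, with 68 blue and 2 red genes to its left.

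Developmental transcription factors were one role group among the WT-only genes. On a list of homeobox and other developmental factors, 95 autosomal genes were expressed in every WT library, and 8 of them (8.42%) were WT-only: *Hand2*, *Tbx5*, *Sox11*, *Hoxa3*, *Hoxa5*, *Hoxb7*, *Hoxb13* and *Hoxc4*. Over all expressed autosomal genes the share was the 0.631% given above. Of the 90 listed factors expressed in DKO MEFs, 0 were DKO-only. Lists of 305 expressed zinc-finger genes, 94 interferon-stimulated and antigen presentation genes, 45 contractile genes and 10 p53 and CDK inhibitor genes held 0 WT-only genes, and lists of 73 adhesion, 63 growth factor, 121 receptor and 39 detoxification genes held 1 each (*Epha4*, *Nrg2*, *Ret* and *Akr1e1*).

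*Hand2*, a basic helix-loop-helix factor of the heart, limb bud and pharyngeal arches, was at 30.1, 47.5, 35.7 and 37.2 CPM in the WT DMSO libraries. A single count was found in 1 of 12 DKO libraries. Its paralogue *Hand1* was at 0 in all 24 libraries. *Tbx5*, the T-box factor of the heart and forelimb field, was at 14, 17.9, 16.3 and 16.4 CPM in WT DMSO and likewise had 1 count in all DKO libraries together. The forelimb gene's hindlimb counterpart *Tbx4* had the opposite pattern, with 0.510 to 1.57 CPM in WT and 12.5 to 17.4 CPM in DKO MEFs. *Tbx15* and *Tbx18* were present in both lines, with medians of 124 and 11.3 CPM in WT and 109 and 21.5 CPM in DKO MEFs. Thus *Tbx5* and *Tbx3* were close to undetected in DKO MEFs and *Tbx4* was lower in WT MEFs, while *Tbx15* and *Tbx18* were shared.

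*Sox11*, a SoxC factor of neural and mesenchymal progenitors, was at 39.3, 36.7, 41.9 and 42.5 CPM in WT DMSO libraries and at most 0.112 CPM in DKO libraries. Both other SoxC genes were on in both lines, *Sox4* with medians of 43.6 and 97.9 CPM and *Sox12* with 84.5 and 59.8 CPM in WT and DKO MEFs. *Mef2c*, a MADS-box factor of heart and muscle, had a median of 4.82 CPM in WT and a highest DKO library of 0.101 CPM, and its relatives *Mef2a* and *Mef2d* were on in both lines. *Mab21l2* and *Mab21l1* encode MAB21-like proteins needed for eye development. *Mab21l2* was at 20.4, 29.1, 21.3 and 22.7 CPM and *Mab21l1* at 6.69, 8.94, 7.30 and 6.76 CPM in WT DMSO. All DKO libraries together held 1 count of the first and none of the second.

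HOX genes give a cell its position along the body axis, with low numbers anterior and high numbers posterior, and in limbs the high numbers distal. The 5 HOX members were *Hoxa3* (3.64 to 6.31 CPM over the WT libraries), *Hoxa5* (3.51 to 7.41), *Hoxb7* (2.75 to 4.89), *Hoxb13* (3.44 to 6.26) and *Hoxc4* (2.35 to 4.51). Across the 4 clusters, HOX genes at 2 CPM or more in every library numbered 7 in WT and 4 in DKO MEFs for cluster A, 7 and 0 for cluster B, 1 and 0 for cluster C, and 6 and 4 for cluster D. No HOXB gene reached 2 CPM in every DKO library. *Hoxb9*, which lies between the members *Gm53* and *Hoxb7*, had a WT median of 43.9 CPM and a DKO median of 1.29 CPM, too high for the rule. The reverse held for the most 5′ genes of clusters A and D, where *Hoxa13* had medians of 1.19 and 14.3 CPM, *Hoxa11* of 2.18 and 23.6 CPM and *Hoxd13* of 8.42 and 118 CPM in WT and DKO MEFs. *Hoxa9* (25.2 and 22.2 CPM) and *Hoxa10* (25.3 and 21.4 CPM) had similar medians in both lines.

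Receptors, ligands and signalling proteins formed another group. *Ptprg*, a receptor protein tyrosine phosphatase, was at 24.6, 24.3, 22.9 and 23 CPM in WT DMSO and had 2 counts in all DKO libraries. *Dclk2*, a doublecortin-like kinase that binds microtubules, was at 27.3, 23.3, 27.9 and 27.1 CPM, whereas its paralogue *Dclk1* had medians of 22.8 CPM in WT and 18 CPM in DKO MEFs. *Ret*, the receptor tyrosine kinase for GDNF-family ligands, was at 3.78, 3.78, 3.31 and 3.02 CPM in WT DMSO. Its coreceptor *Gfra1* (medians 9.82 and 21.5 CPM) and the ligand *Gdnf* (24.5 and 22.3 CPM) were on in both lines, so of these components the receptor kinase alone was close to undetected in DKO libraries. *Flt4* encodes VEGFR3, the receptor for VEGFC on lymphatic endothelium, and was at 9.88, 8.94, 8.95 and 8.23 CPM in WT DMSO. Its relative *Flt1* was at 14 to 21.7 CPM in WT and 1.05 to 3.27 CPM in DKO MEFs, and the ligand *Vegfc* had medians of 7.97 and 14.6 CPM. The endothelial receptor *Kdr* was at most 1.18 CPM in any WT library.

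The remaining signalling members were kinases, ligands, receptors and regulators of small GTPases and actin. *Lyn*, a Src-family kinase known from blood cells, ranged from 7.74 to 10.2 CPM in WT, while *Src*, *Fyn* and *Yes1* were on in both lines with WT medians of 195, 63.5 and 38.9 CPM. *Nrg2*, a neuregulin ligand of ERBB receptors, ranged from 2.79 to 8.13 CPM and *Epha4*, a receptor for ephrins, from 2.49 to 5.75 CPM. *Epha2* was on in both lines with medians of 169 CPM in WT and 213 CPM in DKO MEFs. *Epha7* (medians 3.06 and 0.516 CPM) and *Epha1* (0.863 and 0.0837 CPM) were lower in DKO than in WT MEFs. *Rhbdf2* encodes iRhom2, which carries the protease ADAM17 to the cell surface, and was at 21.3, 19, 23 and 21.3 CPM in WT DMSO. *Rhbdf1* (83.6 and 98.9 CPM) and *Adam17* (67.8 and 57.8 CPM) were on in both lines. *Gng2*, a G protein gamma subunit, had a WT median of 4.32 CPM, *Arhgap8*, a GTPase-activating protein, 4.76 CPM, *Wasf3*, an actin regulator of the WAVE family, 6.0 CPM, and *Rab15*, an endosomal RAB GTPase, 3.15 CPM.

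Lysosomal, oxidase and cell-death genes came next, and it held the member with the highest level per length. *Cyba* encodes p22phox, the membrane subunit shared by several NADPH oxidases. It was at 46.1, 46.8, 51.2 and 50.1 CPM in WT DMSO, at 43.8 to 52.2 CPM over all WT libraries and at 0 in every DKO library. On the per-length scale its WT median was 127 TPM, the highest of the 70 members. Of its catalytic partners, *Nox4* was on in both lines, with medians of 6.85 CPM in WT and 6.76 CPM in DKO MEFs, and *Cybb* and *Nox1* were at most 0.135 CPM in any library. The gene body of *Cyba* overlaps *Galnt2l* on the opposite strand. Where their exons share bases, which was not checked, reads of the 2 genes can be told apart only by strand.

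*Ctsc*, the lysosomal dipeptidyl peptidase cathepsin C, was at 19.4, 19.98, 16.4 and 19 CPM in WT DMSO and at 0 in every DKO library. The other abundant cathepsins were on in both lines. WT and DKO medians were 333 and 259 CPM for *Ctsb*, 337 and 303 CPM for *Ctsd*, and 249 and 273 CPM for *Ctsl*. *Ctsa* differed more, with medians of 284 CPM in WT and 135 CPM in DKO MEFs. *Cpq*, a carboxypeptidase of lysosomes and plasma, ranged from 11.7 to 19.4 CPM in WT MEFs. *Unc93b1*, which escorts nucleic acid-sensing Toll-like receptors to endosomes, ranged from 4.0 to 11.6 CPM in WT. *Tlr3*, one of the receptors it serves, had medians of 9.55 CPM in WT and 33.3 CPM in DKO MEFs. On a list of 57 lysosome and autophagy genes, in which *Ctsc*, *Cpq* and *Unc93b1* do not appear, 41 were expressed in WT and 0 were WT-only.

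*Ripk3*, the kinase that starts necroptosis, was at 11.9, 11.5, 13.2 and 14.2 CPM in WT DMSO and at most 0.0771 CPM in a DKO library. The kinase above it, *Ripk1*, had medians of 60.2 and 67.5 CPM and its substrate *Mlkl* of 37.4 and 117 CPM in WT and DKO MEFs. *Gsdme*, a pore-forming gasdermin cleaved by caspase 3, ranged from 15.2 to 20.01 CPM in WT and reached 0.154 CPM in DKO MEFs. *Gsdmd*, the gasdermin of inflammasomes, was at 24.8 to 37.0 CPM in WT and had a DKO median of 2.66 CPM, which left it outside the rule. *Panx1*, a channel for ATP release, ranged from 2.79 to 4.44 CPM. Necroptosis and gasdermin genes were therefore missing from DKO libraries for some components and present for others.

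Matrix and surface genes included *Lama2*, the alpha chain of the laminins of muscle and nerve, *Mmp16*, a membrane-bound matrix metalloprotease, and *Mfap2*, a protein of elastic microfibrils. Of 77 listed matrix genes expressed in WT MEFs these 3 (3.90%) were WT-only. *Lama2* varied widely between WT DMSO libraries, which were at 10.1, 17.8, 10.9 and 12.2 CPM. *Lama5*, *Lamb1* and *Lamc1* were on in both lines, with WT medians of 477, 371 and 283 CPM. *Mmp16* was at 13.1, 20.5, 14.7 and 16.1 CPM in WT DMSO, while the related *Mmp14* had medians of 194 and 243 CPM in WT and DKO MEFs. *Mmp25*, also a membrane-type protease, was lower in DKO MEFs, with medians of 3.81 and 0.234 CPM. *Gpc6*, a glypican, ranged from 9.22 to 12 CPM in WT and was at 0 in all DKO libraries, and *Gpc1* and *Gpc4* were on in both lines. *Thy1*, a glycosylphosphatidylinositol-anchored surface protein used to mark fibroblasts, was at 2.91, 3.81, 2.60 and 3.26 CPM in WT DMSO and had 1 count in the DKO libraries. *Cd302*, a C-type lectin receptor, had a WT median of 3.34 CPM and *Fetub*, a secreted protease inhibitor, 3.19 CPM.

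Lipid, transport and metabolic genes made up a further 14 members. *Abcg1*, a sterol exporter, was at 4.44, 4.05, 5.30 and 5.25 CPM in WT DMSO, and the exporter *Abca1* had medians of 7.82 and 8.61 CPM in WT and DKO MEFs. *Tmem37*, related to calcium channel gamma subunits, was at 13.7, 12.9, 13.1 and 13.3 CPM in WT DMSO and at 0 in DKO libraries. WT medians were 6.68 CPM for *Slc16a13*, a monocarboxylate transporter family member, 6.09 CPM for *Pctp*, a phosphatidylcholine transfer protein, 4.92 CPM for *Slc22a17*, a receptor for lipocalin 2, and 4.44 CPM for *Ptgis*, prostacyclin synthase. The potassium channel subunit *Kcnf1* (4.08 CPM), the aldo-keto reductase *Akr1e1* (3.97 CPM), the flippase *Atp9a* (3.63 CPM), butyrylcholinesterase *Bche* (3.60 CPM) and the pterin dehydratase *Pcbd1* (2.96 CPM) all had medians under 5 CPM. *Pcbd2*, the other pterin dehydratase, was on in both lines. *B3galt1*, a galactosyltransferase (4.61 CPM), *Tram1l1*, related to a translocation protein of the endoplasmic reticulum (4.99 CPM), and *Ociad2* (2.88 CPM) complete the group. On the list of channels and solute carriers 222 genes were expressed in WT MEFs, and *Abcg1*, *Kcnf1*, *Slc16a13* and *Slc22a17* (1.8%) were WT-only.

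Several members are best known from neurons. *Scrn1*, secernin 1, had the next highest level per length after *Cyba*, with a WT median of 24.4 TPM, and was at 29.3, 27.8, 31.3 and 29.3 CPM in WT DMSO, with 3 counts in all DKO libraries. *Elavl2* (median 3.55 CPM), *Khdrbs3* (4.68 CPM) and *Csdc2* (5.10 CPM) encode RNA-binding proteins. The ubiquitous relative *Elavl1* had medians of 166 and 164 CPM in WT and DKO MEFs and the neuronal *Elavl4* was at most 0.0367 CPM in any library. *Sorcs1*, a sorting receptor (5.19 CPM), *Shisa6*, an auxiliary protein of glutamate receptors (6.41 CPM), *Shtn1*, shootin 1 of growing axons (2.83 CPM), *Cend1*, a cell-cycle exit protein (4.11 CPM), and *Nol4* (4.30 CPM) were all below 10 CPM. *Pdzrn3* (5.33 CPM) and *Rnf130* (7.05 CPM) encode RING-finger ubiquitin ligases, and *Rsph1* (2.45 CPM) a radial spoke protein of motile cilia. *Peg12*, an imprinted gene expressed from the paternal allele, was the single WT-only gene among 19 expressed imprinted genes (5.26%), at 2.68 to 4.03 CPM in WT, and it was the member with at least 1 count in all 12 DKO libraries.

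The 4 members without a protein-coding annotation lie beside members that code for transcription factors. *5033428I22Rik*, downstream of *Hand2*, was at 18.2, 18.6, 21.2 and 20.6 CPM in WT DMSO and at 0 in DKO libraries. *Gm53*, inside the HOXB cluster, was at 6.25, 7.83, 8.69 and 7.27 CPM and at 0 in DKO libraries. *Hand2os1*, transcribed from the strand opposite *Hand2*, was at 5.97, 7.08, 7.31 and 7.24 CPM, and *Gm43050*, opposite and next to *Tbx5*, at 2.66, 3.72, 3.08 and 3.02 CPM. *Hand2os1* has 37 annotated transcripts and its most abundant one took 15.3% of the counts. Its gene body overlaps *Hand2* on the other strand. Where their exons share bases, which was not checked, its level rests on how strand was used in counting. That use of strand is not given in the sources used here.

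The 2 DKO-only genes have near-identical copies or neighbours, which makes their levels uncertain. *Prl2c3*, a prolactin-related gene of the placental prolactin family, was at 9.43, 6.63, 12.6 and 10.1 CPM in DKO DMSO libraries, and all WT libraries together held 25.3 estimated counts. *Prl2c2*, a close copy, had medians of 0.407 CPM in WT and 5.44 CPM in DKO MEFs, and reads can be divided between the copies only by the few bases that differ. *Gm18853*, an unprocessed pseudogene, was at 4.83, 4.34, 3.38 and 4.24 CPM in DKO DMSO and had 5.03 estimated counts in the WT libraries. It overlaps *Gvin1*, a very large inducible GTPase, on the same strand. *Gvin1* itself was at 3.27 to 33.3 CPM in WT and had a median of 550 CPM in DKO MEFs, and the related *Gm4070* and *Gm8995* had medians of 8.80 and 2.44 CPM in WT and 689 and 157 CPM in DKO MEFs. *Gm18853* therefore moved with its overlapping gene, whose part in its counts was not tested.

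**Figure D3:**
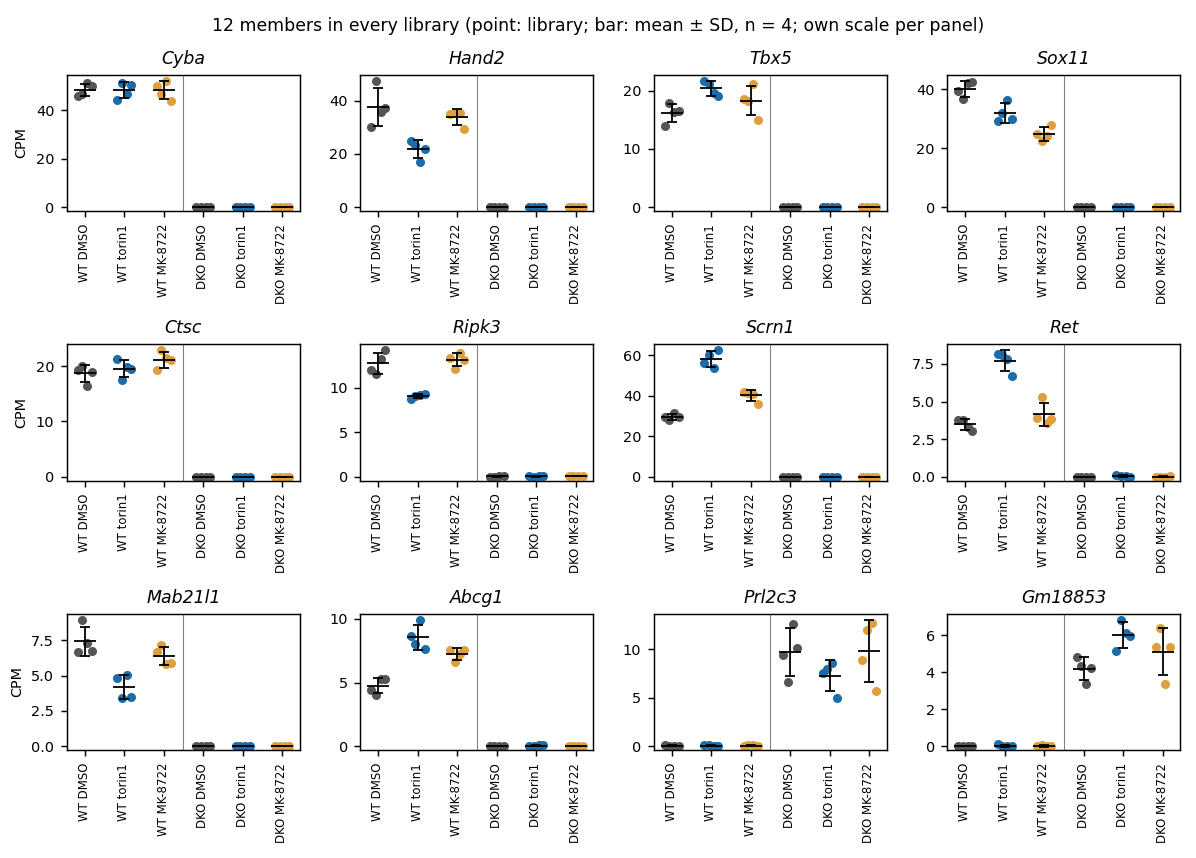
CPM of 12 members in every library, by group (points, libraries; black bars, mean ± SD of 4 libraries; each panel has its own linear scale). The first 10 genes are WT-only and lie at 0 or close to it in the DKO groups, and *Prl2c3* and *Gm18853* show the reverse.

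The members lie on every autosome (genome build GRCm38), from 1 WT-only gene on chromosome 16 to 9 on chromosome 11. As a share of the genes expressed in WT MEFs, they ranged from 0.285% on chromosome 16 to 1.33% on chromosome 14. Joining members whose gene bodies lie within 500 kb of each other gave 7 runs with 16 members. For each WT-only member, the nearest gene on each side at 2 CPM or more in every WT library was taken, leaving out other members and overlapping genes. This gave 136 flanking positions, of which 119 were at 2 CPM or more in every DKO library. None could be at most 0.2 CPM in all DKO libraries, because such a gene would itself be a member. *Tbx3*, a flank of *Tbx5* and *Gm43050*, was at most 0.203 CPM in DKO libraries. For 55 members both flanks were expressed in DKO MEFs, and the median distance to the nearer flank was 67.7 kb. Of all expressed WT autosomal genes, 95.2% were at 2 CPM or more in every DKO library.

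Of the 7 runs, 4 involved developmental loci. *Hand2os1* (chr8:57281117-57324233, minus strand), *Hand2* (chr8:57320983-57324633, plus strand) and *5033428I22Rik* (chr8:57332118-57354580, plus strand) formed a run of 73.5 kb. The one other gene above 0.2 CPM in it, *Gm34030*, had a WT median of 1.76 CPM and was at 0 in all DKO libraries. *Gm43050* (chr5:119828448-119831920, minus strand) and *Tbx5* (chr5:119832668-119885219, plus strand) were 0.748 kb apart with no gene between them. *Hoxb13*, *Gm53* and *Hoxb7* spanned 95.8 kb of the HOXB cluster (chr11:96194316-96290162), and between them *Hoxb9* and *Hoxb8* had WT medians of 43.9 and 7.34 CPM and DKO medians of 1.29 and 0.448 CPM, above the threshold. *Hoxa3* and *Hoxa5* lie in the HOXA cluster (chr6:52169062-52213336), with *Hoxa4* at medians of 3.39 and 0.288 CPM between them and *Hoxa6* at 1.36 CPM in WT and 0 in every DKO library. The annotated body of *Hoxa3* covers *Hoxa4* and *Hoxa5* on the same strand. Whether their exons share bases, which would make the assignment of reads between them uncertain, was not checked.

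The other 3 runs were pairs. *Mab21l2* (chr3:86545581-86548629) sits inside *Lrba*, on the opposite strand, and *Dclk2* (chr3:86786151-86920852) next to it. *Lrba* stayed on in both lines but had medians of 55.6 CPM in WT and 7.5 CPM in DKO MEFs. *Abcg1* (chr17:31057675-31117988) and *Rsph1* (chr17:31255019-31277383) had 8 genes between them, all at most 0.2 CPM in every library. *Flt4* and *Rnf130* span 495 kb of chromosome 11 (chr11:49609263-50104758), and 3 genes between them, *Cnot6*, *Gm12191* and *Mapk9*, were on in both lines. Genes between the members were thus on in both lines in the *Flt4* and *Mab21l2* runs, while in the *Hand2*, *Tbx5* and *Abcg1* runs no other gene reached 2 CPM in every WT library.

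**Figure D4:**
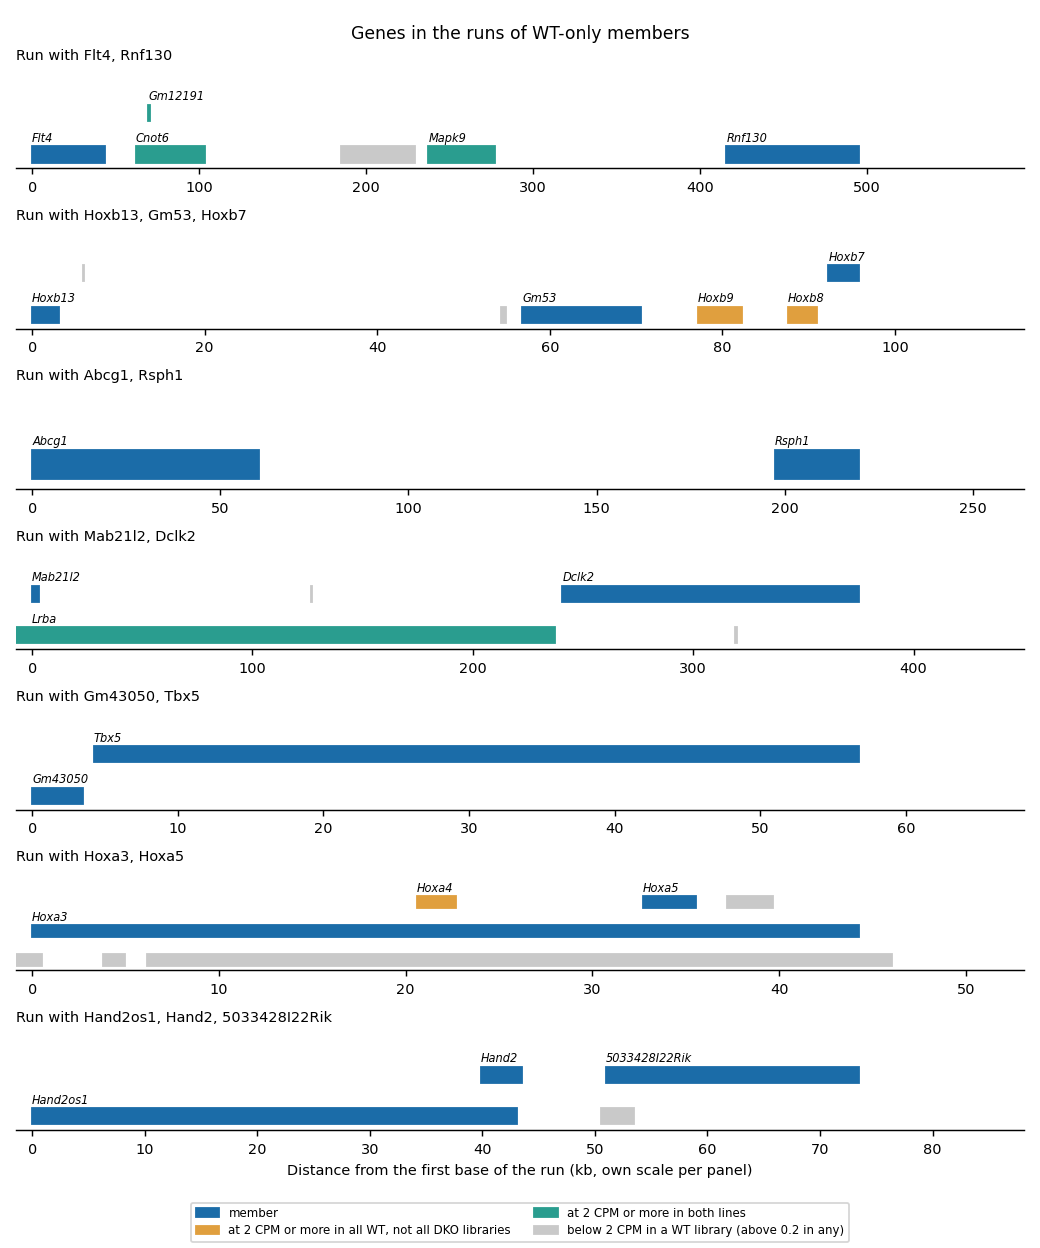
Genes in the 7 runs of WT-only members, drawn to scale as bars against the distance from the run's first base (kb, each panel with its own scale). Blue bars are members, orange bars genes at 2 CPM or more in all WT but not all DKO libraries, green bars genes at 2 CPM or more in both lines, and grey bars other genes above 0.2 CPM in any library. Green bars lie between the members of the *Flt4* run and across *Mab21l2*, and orange bars lie in both HOX runs.

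Promoter windows of 300 bases (250 before to 50 after the start site, RefSeq, GRCm38.p6) were found by symbol for 42 of the 68 WT-only genes and for *Prl2c3*. Both strands were searched for CACGTG, the core of the E-box that TFEB and TFE3 bind, which reads the same on both strands. It was present in 1 of the 42 WT-only windows (2.38%), that of *Ripk3*, against 10.6% of 8291 windows of autosomal genes expressed in WT MEFs and 7.68% of all 19834 autosomal windows. The longer letters TCACGTGA, which contain CACGTG, and TCACATGA with its reverse complement TCATGTGA, were in 0 of the 42. TATAAA or its reverse complement TTTATA was in 5 of 42 windows (11.9%), against 6.08% of windows of genes expressed in WT and 13.5% of all. A match is a description of letters and not evidence of binding, and its absence concerns this window alone. The window of *Ripk3* (chr14:55788808-55789107, minus strand) is shown because it is the one with the E-box core, in capitals, starting 61 bases before the start site:

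Ripk3: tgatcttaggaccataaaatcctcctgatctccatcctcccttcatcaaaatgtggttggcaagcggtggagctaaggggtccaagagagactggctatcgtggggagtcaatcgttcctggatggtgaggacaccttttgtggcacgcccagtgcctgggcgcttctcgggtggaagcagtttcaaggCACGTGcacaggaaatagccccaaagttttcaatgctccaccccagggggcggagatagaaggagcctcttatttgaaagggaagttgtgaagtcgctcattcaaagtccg

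CG dinucleotides are the letters on which vertebrate DNA is methylated, and promoters rich in them are called CpG islands. The 42 WT-only windows held from 1 to 50 of them, with a median of 15, against a median of 22 in windows of genes expressed in WT MEFs and 11 in all windows. Windows with 20 or more numbered 17 of 42 (40.5%), against 60.6% of windows of expressed genes, and windows with fewer than 5 numbered 4 of 42 (9.52%), against 4.03%. The WT-only genes thus included both CG-rich and CG-poor promoters. The windows below, with each CG in capitals, show the range: *Sorcs1* (chr19:50678597-50678896, minus strand) with 50, *Hand2* (chr8:57320733-57321032, plus strand) with 17, *Mef2c* (chr13:83503784-83504083, plus strand) with 1 and, from the DKO-only side, *Prl2c3* (chr13:12800030-12800329, minus strand) with 2.

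Sorcs1: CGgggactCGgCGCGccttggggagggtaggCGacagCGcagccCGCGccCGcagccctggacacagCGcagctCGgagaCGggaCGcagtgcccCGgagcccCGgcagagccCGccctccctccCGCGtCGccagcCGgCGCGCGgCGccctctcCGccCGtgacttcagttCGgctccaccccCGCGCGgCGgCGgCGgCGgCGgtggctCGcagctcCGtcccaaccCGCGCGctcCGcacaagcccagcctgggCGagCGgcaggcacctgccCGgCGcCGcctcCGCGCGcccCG

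Hand2: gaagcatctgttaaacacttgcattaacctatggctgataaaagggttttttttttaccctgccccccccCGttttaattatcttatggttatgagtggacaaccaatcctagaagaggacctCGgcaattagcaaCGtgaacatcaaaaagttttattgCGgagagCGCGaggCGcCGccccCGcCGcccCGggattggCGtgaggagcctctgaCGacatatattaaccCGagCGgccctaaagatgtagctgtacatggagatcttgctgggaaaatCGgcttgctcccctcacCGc

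Mef2c: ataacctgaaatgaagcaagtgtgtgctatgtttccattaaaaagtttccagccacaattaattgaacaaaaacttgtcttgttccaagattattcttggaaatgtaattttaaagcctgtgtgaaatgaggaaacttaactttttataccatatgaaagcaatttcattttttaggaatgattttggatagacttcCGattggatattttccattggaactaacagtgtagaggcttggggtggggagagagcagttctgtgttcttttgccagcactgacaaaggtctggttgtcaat

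Prl2c3: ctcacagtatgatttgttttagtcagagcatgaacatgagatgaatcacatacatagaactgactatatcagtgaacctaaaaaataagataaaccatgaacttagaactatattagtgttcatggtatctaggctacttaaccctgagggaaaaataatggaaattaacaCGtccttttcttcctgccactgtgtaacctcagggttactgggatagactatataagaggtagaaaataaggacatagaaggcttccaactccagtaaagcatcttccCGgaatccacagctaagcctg

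The *Hand2* window shares 223 of its bases with that of *Hand2os1* on the other strand. The RefSeq start used for *Hand2os1* lies 3374 bases from the 5′ end of that gene in GENCODE, and 7 of the 43 matched windows were more than 500 bases from that end.

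Torin1 and MK-8722 were compared with DMSO inside WT MEFs, a contrast that did not choose the members. The rule still bears on it, because a gene that a drug took below 2 CPM in any WT library could not be a member. A gene was called when it reached a fold change of 1.2 with an adjusted p below 0.05 in edgeR's quasi-likelihood test across 15401 genes. With torin1, 18 of the 68 WT-only genes (26.5%) were upregulated, beside 26.6% of all genes tested and 24% of autosomal genes at 2 CPM or more in every WT library. Downregulated were 9 (13.2%), beside 20.5% of all genes and 26.2% of the expressed ones, and 41 were not called. The members had a middle WT level of 5.05 CPM, against 39.6 CPM for the expressed genes. Low counts make a call less likely, and the sets were not matched for level, here and in the comparisons below. The median log2 fold change was 0.09 over the members, 0.05 over all genes tested and -0.02 over the expressed genes.

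The largest torin1 increases were in *Arhgap8*, *Ret* and *Atp9a*. *Ret* was at 8.17, 8.12, 7.84 and 6.68 CPM with torin1, each above all DMSO libraries (log2 fold change 1.05 ± 0.16 (SE), adjusted p = 1.37e-05). *Arhgap8* was at 12.7, 9.01, 8.04 and 8.48 CPM with torin1 and at 3.60, 5.82, 3.72 and 3.46 CPM with DMSO (1.10 ± 0.21, adjusted p = 0.000219). *Atp9a* was at 9.50, 6.81, 5.63 and 7.10 CPM with torin1 against 2.88, 3.87, 3.31 and 3.70 CPM (0.98 ± 0.19, adjusted p = 8.26e-05). In each of these the groups did not overlap. *Scrn1* was at 56.2, 59.9, 53.8 and 62.4 CPM with torin1, all above its DMSO values (0.89 ± 0.08, adjusted p = 4.83e-09). The laminin gene *Lama2* was at 34.0, 24.5, 21.1 and 21.1 CPM with torin1, again above all DMSO libraries (0.88 ± 0.21, adjusted p = 0.000921).

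Other members upregulated by torin1 spanned the role groups. They were the receptors *Flt4* and *Epha4*, the signalling gene *Gng2*, the transporter and enzyme genes *Abcg1*, *Slc22a17* and *Akr1e1*, *Unc93b1*, *Mfap2*, *Hoxa5*, *Elavl2*, *Sorcs1*, *Rnf130* and *Rsph1*, with log2 fold changes from 0.37 (*Elavl2*) to 0.87 (*Akr1e1*). The calls of *Elavl2* and *Mfap2* were lost in 8 and 6 of 16 alternative analyses. *Flt4* was at 14.2, 14.8, 14.1 and 15.1 CPM with torin1, and *Rnf130*, its partner in a run, at 11.1, 10.4, 11.5 and 11.1 CPM against 7.04, 5.94, 6.58 and 5.49 CPM with DMSO.

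Torin1 lowered *Mab21l1*, *Hand2*, *Tmem37*, *Mab21l2*, *Pdzrn3*, *Ripk3*, *5033428I22Rik*, *Sox11* and *B3galt1*, the last of which lost its call in 8 of 16 alternative analyses. *Hand2* was at 24.9, 23.2, 17.1 and 21.8 CPM with torin1, below all DMSO libraries (log2 fold change -0.88 ± 0.13, adjusted p = 2.29e-05). *Mab21l1* was at 4.84, 3.41, 5.06 and 3.48 CPM (-0.91 ± 0.16, adjusted p = 0.000177) and *Mab21l2* at 17.1, 15.5, 13 and 13.2 CPM (-0.76 ± 0.12, adjusted p = 4.30e-05). These 3 developmental genes were thus lower in every torin1 library than in any DMSO library. *Tmem37* was at 7.78, 8.19, 8.07 and 8.44 CPM (-0.80 ± 0.09, adjusted p = 2.21e-06) and *Ripk3* at 8.76, 9.01, 9.14 and 9.24 CPM (-0.58 ± 0.11, adjusted p = 9.63e-05). *Hand2os1*, opposite *Hand2*, was not called, with 8.57, 7.61, 7.23 and 6.73 CPM under torin1 (0.04 ± 0.16, adjusted p = 0.864). *Cyba* (-0.10 ± 0.07, adjusted p = 0.214) and *Ctsc* (-0.03 ± 0.09, adjusted p = 0.806) were not called either. *Tbx5* was higher in 4 of 4 torin1 libraries than in any DMSO library. It missed both the fold change and the adjusted p threshold (0.24 ± 0.11, adjusted p = 0.0696).

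**Figure D5:**
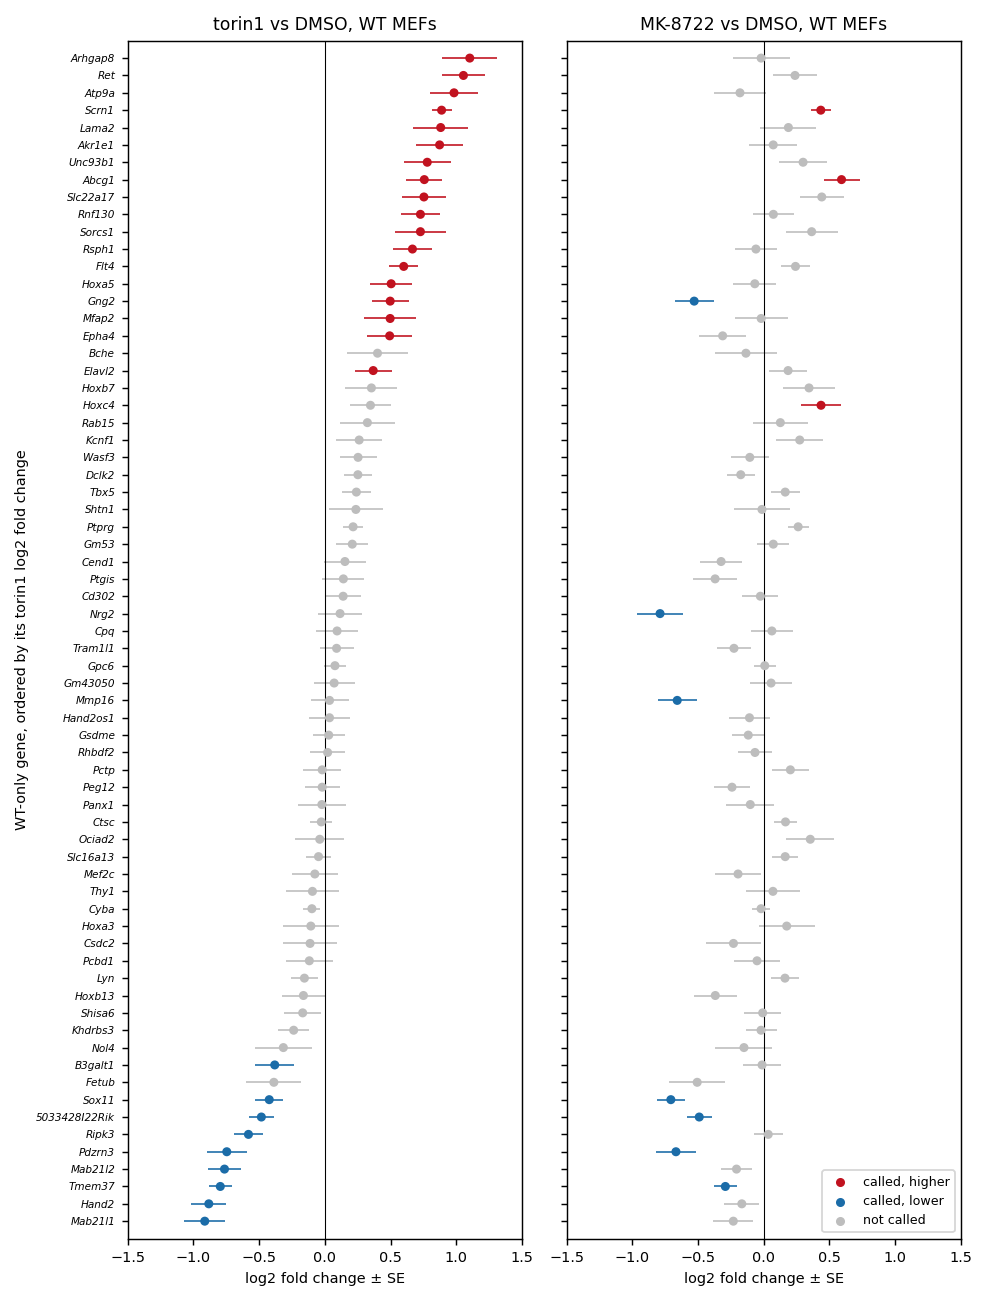
Log2 fold change ± SE (edgeR, 4 libraries against 4) of the 68 WT-only genes for torin1 (left) and MK-8722 (right) against the same WT DMSO libraries, ordered by the torin1 value. Red and blue points were called higher and lower. There are 18 red and 9 blue points for torin1 and 3 red and 7 blue points for MK-8722.

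For MK-8722 too, the sets set side by side were not matched for level. With MK-8722, 3 of 68 WT-only genes (4.41%) were upregulated, beside 10.3% of all genes tested and 12.2% of the expressed ones, and 7 (10.3%) were downregulated, beside 5.87% and 6.27%. When passage was added as a block to a fit of the 12 WT libraries, in which samples of 1 passage deviated together, these counts rose to 8 and 12, beside 11.5% and 7.94% of all genes tested there. In the same fit torin1 against DMSO had 21 upregulated and 10 downregulated members, beside 27.6% and 23.2%, with *Bche*, *Hoxb7* and *Hoxc4* added upward and *Fetub* downward. *Abcg1* was at 7.53, 6.59, 7.26 and 7.54 CPM with MK-8722, above all DMSO libraries (log2 fold change 0.59 ± 0.14, adjusted p = 0.00240). *Scrn1* was at 41.9, 41.6, 41.0 and 36.0 CPM, between its DMSO and torin1 values (0.43 ± 0.08, adjusted p = 0.000210). *Hoxc4* was at 4.51, 3.26, 3.71 and 3.81 CPM against 2.35, 2.70, 3.35 and 2.81 CPM, with overlapping groups (0.44 ± 0.15, adjusted p = 0.0402), and 9 of 16 alternative analyses lost this call.

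*Nrg2* had the largest decrease with MK-8722. Its libraries were at 3.76, 2.79, 3.84 and 3.14 CPM against 5.97, 4.62, 7.11 and 5.56 CPM with DMSO and 5.99, 7.23, 5.46 and 8.13 CPM with torin1 (MK-8722 against DMSO -0.79 ± 0.17, adjusted p = 0.00157). *Sox11* was at 24.9, 22.4, 24.1 and 27.8 CPM with MK-8722, below every torin1 and every DMSO library (-0.71 ± 0.11, adjusted p = 1.98e-05). The ubiquitin ligase *Pdzrn3* was at 4.78, 4.99, 5.23 and 5.44 CPM, below all 4 DMSO libraries (-0.67 ± 0.15, adjusted p = 0.00224). *Mmp16* was at 9.92, 11.4, 10.7 and 9.17 CPM, below all other WT libraries (-0.66 ± 0.15, adjusted p = 0.00387). *Gng2*, *5033428I22Rik* and *Tmem37* completed the 7, with log2 fold changes of -0.53, -0.49 and -0.29.

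The 2 drugs were also compared directly in WT MEFs. With torin1, 21 of 68 WT-only genes (30.9%) were higher than with MK-8722, beside 24.9% of all genes tested and 21.4% of the expressed ones, and 7 (10.3%) were lower, beside 20% and 25.9%. With passage as a block these counts were 25 and 9, beside 25.7% and 22.4% of all genes tested. *Atp9a* (log2 fold change 1.16 ± 0.19, adjusted p = 1.46e-05), *Arhgap8* (1.12 ± 0.21, adjusted p = 0.000215) and *Gng2* (1.03 ± 0.15, adjusted p = 1.23e-05) differed most upward. *Gng2* was called in opposite directions by the 2 drugs, at 6.41, 7.33, 5.33 and 6.64 CPM with torin1, 4.28, 4.35, 3.84 and 4.60 CPM with DMSO and 3.33, 3.0, 3.16 and 2.42 CPM with MK-8722, with no overlap between the 3 groups. The largest differences downward were in *Hand2* (-0.72 ± 0.13, adjusted p = 0.000214), *Mab21l1* (-0.68 ± 0.16, adjusted p = 0.00208) and *Ripk3* (-0.62 ± 0.11, adjusted p = 5.65e-05).

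By edgeR, neither DKO-only gene was called in any of the 3 drug comparisons in DKO MEFs, where 23%, 5.47% and 21.1% of all genes tested were called higher and 20.2%, 3.21% and 19.3% lower for torin1 against DMSO, MK-8722 against DMSO and torin1 against MK-8722. *Gm18853* was at 5.15, 6.82, 6.11 and 5.95 CPM with torin1, above all 4 DMSO libraries (log2 fold change 0.48 ± 0.22, adjusted p = 0.0672). *Prl2c3* was at 7.58, 7.97, 8.62 and 4.96 CPM with torin1, overlapping the DMSO libraries (-0.45 ± 0.25, adjusted p = 0.129). Before adjustment, *Gm18853* with torin1 against DMSO was the 1 of these 6 values under the threshold of 0.05, and DESeq2 called that 1 and no other. With passage as a block, where 24.9% of all genes were called higher and 23.3% lower, both passed for torin1 against DMSO, *Gm18853* upward (adjusted p = 0.00317) and *Prl2c3* downward (adjusted p = 0.000440). *Prl2c3* was then also lower with torin1 than with MK-8722 (adjusted p = 0.000497), where 22.9% of all genes were called higher and 22.1% lower.

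Few members had all 3 libraries of 1 passage above or below the other 9 of their line, a count that differences between treatments can lower. In the WT line, 3 of 68 members had their 3 passage 11 libraries above all 9 others, beside 2.63% of expressed genes, and 1 had them below, beside 1.2%. Those above were *Thy1* (3.81 to 4.56 CPM against 2.37 to 3.35 CPM), *Cpq* (16.7 to 19.4 against 11.7 to 15.7 CPM) and *Shisa6* (7.15 to 8.00 against 5.41 to 6.78 CPM), and the one below was *Hoxa3* (3.64 to 3.84 against 4.22 to 6.31 CPM). Ranked within each treatment instead, a count chosen after the data were seen, the passage 11 library was the highest in all 3 WT treatments for 14 members, beside 11.2% of expressed genes, and the lowest for 10, beside 15%. The 14 included *Lama2*, *Sorcs1*, *Arhgap8* and *Atp9a*, and the 10 included *Ripk3* and *Sox11*. At passage 8, *Rhbdf2* was above and *Thy1* below the other 9 libraries, beside 0.111% and 0.0929% of expressed genes, and 0 members stood apart at passages 7 and 9 (0.269% and 0.0371% above, 0.539% and 0.0279% below). In DKO MEFs, *Prl2c3* had its 3 passage 8 libraries (4.96 to 6.63 CPM) below the other 9 (beside 0.902% of expressed genes, with 0.446% above).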

How the data were processed

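Polyadenylated RNA of 24 MEF cultures was sequenced with a kit the labels call strand-specific. According to the methods, the authors aligned reads to GRCm38 with STAR, handled molecular identifiers and estimated counts with salmon. They deposited a table of estimated counts per gene and, per library, transcript tables with estimated counts and TPM values. Whether their batch removal touched the deposited counts is not given in the sources used here, and the gene table equalled the summed transcript counts to within 5.82e-11 counts. All libraries are labelled batch 1.

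Estimated counts were divided by the library total to give CPM, and TPM were summed per gene. Library totals ran from 24668921 to 33332562 counts. The members, gene lists, markers and partner genes were chosen with earlier results of these data known. Drug effects were tested on rounded counts with edgeR 4.0.16 (R 4.3.3, TMM, filterByExpr with a minimum count of 10, two-sided quasi-likelihood test, Benjamini-Hochberg adjustment over 15401 genes), with 1 mean per group of all 24 libraries and no block. All 70 members passed the filter, which a rule based on high values in one line made certain. Both drug contrasts with DMSO share the DMSO libraries. The steps were tested on simulated data. For the edgeR test this covered torin1 against DMSO in WT MEFs, with no differences between passages in the simulation, so it does not bear on passage effects.

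Values in every library were given for the members with the highest medians, called members with the largest changes, members of runs and of the lists, and those nearest the thresholds. Other members were named by role, and partner genes, *Tbx3* and further HOX genes were chosen after the members were known. Alternatives were no filter, DESeq2 1.42.0 and its size factors, fits of 1 genotype, passage or replicate number as a block, no fold threshold, each library left out, and other thresholds of the rule. Libraries of the same passage deviated together in both lines (correlation of deviations from group means 0.022 to 0.657 in WT and 0.049 to 0.236 in DKO MEFs). Promoter windows came from RefSeq (GRCm38.p6), and 27 members without one were not searched.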

Additional observations from a re-analysis of the deposited data

Results flagged for a closer look

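Among 47 named members, 141 groups of 4 libraries were tested for 1 library far from the other 3 by Dixon's ratio, and 11 passed, where chance gives about 1 in 20.

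In WT MK-8722, replicate 4 (passage 7) was lowest for *Scrn1* at 36.0 CPM (others 41.0 to 41.9), *Hand2* at 29.5 CPM (34.8 to 35.5) and *Mab21l2* at 17.9 CPM (20.9 to 21.5). In WT DMSO, replicate 2 (passage 11) was lowest for *Dclk2* at 23.3 CPM (27.1 to 27.9) and highest for *Arhgap8* at 5.82 CPM (3.46 to 3.72) and *Pcbd1* at 3.42 CPM (2.90 to 2.97). *Arhgap8* was also highest in the passage 11 library of WT MK-8722, replicate 2, at 5.79 CPM (3.49 to 3.68), and in WT torin1 its highest library, at 12.7 CPM, was again that of passage 11.

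*Hand2os1* was lowest in WT DMSO replicate 1 at 5.97 CPM (others 7.08 to 7.31). In WT torin1 replicate 3, *Epha4* was lowest at 4.42 CPM (5.68 to 5.75) and *Kcnf1* highest at 6.23 CPM (3.89 to 4.28). *Kcnf1* was highest in WT MK-8722 replicate 1 at 5.25 CPM (4.0 to 4.21).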

How the results depend on the processing

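The number of WT-only genes was 66 on TMM-scaled library sizes, 52 by TPM (43 of them among the 68) and 49 with at most 0.1 CPM in the silent line, or 70 (49 of them among the 68) with at least 1 and at most 0.1 CPM. It was 98 with DMSO libraries alone and 74 without WT passage 11 and DKO passage 8, both with 3 DKO-only genes (*Ifi27l2b* added). It was 27 with at least 5 CPM in the expressing line and 15 with 0 counts in the silent line. The DKO-only genes numbered 0 by TPM, with at least 1 and at most 0.1 CPM, with at least 5 and at most 0.2 CPM, with at least 2 and at most 0.1 CPM, and with 0 counts. Leaving out each library gave 68 to 70 WT-only and 2 to 3 DKO-only genes, the third being *Ifi27l2b*, which entered without WT MK-8722 replicate 2. Joining members within 100 kb gave 4 runs.

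With passage as a block, MK-8722 against DMSO in WT MEFs had 8 upregulated and 12 downregulated members in place of 3 and 7, while torin1 had 21 and 10 against DMSO and 25 and 9 against MK-8722. In DKO MEFs, torin1 against DMSO then had 1 upregulated (*Gm18853*, also called by DESeq2 and by a fit of the 12 DKO libraries alone, 1 in each) and 1 downregulated member (*Prl2c3*), and torin1 against MK-8722 had 1 downregulated member (*Prl2c3*), which was called too without DKO MK-8722 replicate 4. Samples with the same replicate number did not always share a passage. WT replicate 2 was of passage 11 with DMSO and MK-8722, and DKO replicate 3 was of passage 10 in every treatment. A replicate block on that number gave 18 and 8 calls for torin1 and 2 and 8 for MK-8722 against DMSO, and 21 and 6 for torin1 against MK-8722 in WT MEFs.

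Leaving out 1 library gave 16 to 18 upregulated and 8 to 10 downregulated members for torin1 and 2 to 4 and 6 to 8 for MK-8722 against DMSO, and 17 to 21 and 6 to 7 for torin1 against MK-8722, in WT MEFs. In DKO MEFs these counts were 0, except 0 to 1 downregulated for torin1 against MK-8722. Of 65 called gene effects, 52 kept their call in each of 16 alternatives and 0 reversed. Those lost in 6 or more were *B3galt1* (both torin1 comparisons), *Elavl2*, *Mfap2*, *Hoxc4* with MK-8722, and *Sox11* and *Wasf3* between the drugs. The cause was not tested. At these depths a level of 0.2 CPM rests on about 6 counts, so membership near that threshold is set by single reads.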
